A study of Mus musculus with 2 samples.

Results

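The ribosomal protein genes described here are the 81 genes of 27998 in a single-cell count matrix whose symbols are Rps or Rpl followed by a number with at most 1 letter, together with Rpsa, Rplp0, Rplp1 and Rplp2. Symbols of named pseudogenes were left out, and the rule reads symbols alone. Of the 81, 31 belong to the small and 50 to the large ribosomal subunit. All 81 gene identifiers were found in the GENCODE vM21 annotation of GRCm38, where 80 are protein coding and Rpl6l is a processed pseudogene. Because of how their symbols are written, Rps3a1 and Fau, for example, fall outside the rule although they encode ribosomal proteins. Gnb2l1 (Rack1), whose protein binds the small subunit, is also outside it. Their values are given beside those of the members.

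The cells were adipocyte precursors sorted by flow cytometry from the subcutaneous fat of wild-type mice at 12 days of age. As pups they had been cross-fostered onto dams whose milk fat had a high n-6/n-3 ratio of polyunsaturated fatty acids (1 sample) or a low one (1 sample), and cells of each condition entered a droplet capture with 3′-end counting of unique molecular identifiers (UMIs). One label calls the cells fresh and another says that they were frozen and thawed, and neither says how many pups were pooled. The matrix joins 2 libraries that only the ending of the barcode tells apart, and which milk each of them stands for is not labelled. They are therefore called library 1 and library 2, no diet comparison was made, and with 1 library per condition no test between conditions exists. Every interval below covers counting error only.

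The ribosome is built from ribosomal RNA and single copies of most of a fixed set of proteins, so the genes of both subunits are usually expressed together and at high level. Their mRNAs carry a run of pyrimidines at the 5′ end, the TOP motif, through which mTORC1 and the LARP1 protein are known to adjust their translation and stability. Several members have paralogues whose proteins can take the same place in the ribosome. Adipocyte precursors are known to form a continuum between Dpp4-positive interstitial progenitors and committed preadipocytes marked by Icam1 and Pparg, with a separate F3-positive population.

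Of 6905 barcodes, 6885 were kept (3307 in library 1 and 3578 in library 2), and 17 barcode sequences occurred in both libraries. Cells were placed by the UMIs of marker genes, with no clustering. The share of committed-pole UMIs among the UMIs of both pole lists parted the remaining non-cycling cells of each library into 3 groups of nearly equal size, with the limits at 0.130 and 0.5 in library 1 and 0.128 and 0.5 in library 2: 1769 progenitor-pole, 1804 midway and 1734 committed-pole cells. A further 630 non-cycling cells had at least 1 UMI of F3 and at least 3 of 7 F3-type genes. With at least 2 UMIs of Mki67 and Top2a, 194 cells are called cycling, and 5959 precursors with no UMI of either gene non-cycling. The 517 precursors with 1 such UMI were left out of both classes. Another 22 non-cycling cells had fewer than 10 UMIs of the 2 pole lists together and were placed in no pole state. These classes are ranges of a marker count, and 400 cells of library 1 and 423 of library 2 lay within 0.02 of a limit. The 6 precursor identity genes, Pdgfra, Ly6a, Cd34, Dcn, Col1a1 and Col1a2, were detected in every class of both libraries. Cells with markers of immune, endothelial, mural or erythroid cells, 215 in all, were set aside. Schwann and muscle markers were not used to leave cells out. In midway cells the summed Schwann markers had 21.1 CPM in library 1 and 200.8 CPM in library 2, and the muscle markers 3.9 and 17.2 CPM. In the progenitor and committed poles of library 2 the Schwann markers had 25.5 and 43.8 CPM.

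The start regions of 60 of the 81 members were present in the RefSeq table for GRCm38.p6, as 72 start windows. Some of the members that stand apart in the comparisons below are shown, and others named there are not. Each window runs from 15 bases before to 15 bases after the annotated start, 5′ to 3′, with the longest run of C and T in capitals.
Rps28: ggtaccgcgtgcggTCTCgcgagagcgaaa
Rps27: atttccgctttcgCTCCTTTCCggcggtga
Rpl38: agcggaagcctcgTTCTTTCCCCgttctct
Rpl35: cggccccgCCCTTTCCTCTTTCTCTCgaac
Rps27l: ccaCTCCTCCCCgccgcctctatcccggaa
Rpl10: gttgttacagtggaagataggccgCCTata
Rpsa: gtgggttatttaaggacgtcaTTTCCggcc
Rpl41: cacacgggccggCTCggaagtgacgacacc
They lie at chr17:33824548-33824577 (minus strand, Rps28), chr3:90213634-90213663 (minus, Rps27), chr11:114668565-114668594 (plus, Rpl38), chr2:39005117-39005146 (minus, Rpl35), chr9:66946071-66946100 (plus, Rps27l), chrX:74270801-74270830 (plus, Rpl10), chr9:120127751-120127780 (plus, Rpsa) and chr10:128549154-128549183 (minus, Rpl41).

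Rps27 and Rpl38 had runs of 9 and 10 pyrimidines that began 2 bases before the annotated start, and Rpl35 had a run of 18 across it. Rps28 had a run of 4, and the run of 9 in Rps27l lay upstream of the start. In Rpl10, Rpsa and Rpl41 the longest runs in these windows were 3, 5 and 3 bases. The annotated start used here may lie some bases from the start the cells use. A C at the start followed by 4 more pyrimidines was found in 13 of the 72 member windows (18.1%), against 823 of all 32851 windows (2.51%). A run of at least 8 pyrimidines between 10 bases before and 20 after the start was in 23 member windows (31.9%), against 11.2% of all windows. In the whole window of 250 bases before to 50 after the start, the ETS core CCGGAA was on either strand of 34 member windows (47.2%), against 14.9% of all, and the YY1 core AAGATGGC on either strand of 7 (9.72%), against 2.75%. The last AA of the first motif can be the first AA of the second, which was the case in 0 member windows. These are matches of letters and not sites of binding.

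Ribosomal protein genes made up 22.8% of all UMIs of the kept cells, 23.0% in library 1 and 22.6% in library 2. Small-subunit members gave 9.57% and large-subunit members 13.3%. Among the members, 80 of 81 had at least 1 UMI in precursors, 79 reached 10 UMIs per 1000000 (CPM) and 76 reached 1000 CPM. Each captured molecule counts once whatever the length of the transcript, so these levels can be set side by side between genes, but many members have processed pseudogenes, and the sources used here do not give how reads with several matches were counted. The median small-subunit member among those at 10 CPM or more had 3104.4 CPM and the median large-subunit member 2555.8 CPM.

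Rpl41, which encodes a very short basic peptide of the large subunit, was the highest member, at 8676.0 CPM in library 1 and 8672.1 CPM in library 2. It was followed by Rplp1, a protein of the stalk that recruits elongation factors (5866.7 CPM over both libraries), and by Rps29 (5650.4 CPM), Rpl13 (4854.4 CPM) and Rpl37a (4750.8 CPM). The counting interval of Rpl41 was 8653.9 to 8694.1 CPM, far above the next member. The lowest members were mostly paralogues. Rpl10l, a retrogene known from the testis, had no UMI in any precursor. Rpl3l, the striated muscle form of Rpl3, had 13 UMIs in all (0.158 CPM), Rpl39l had 18.7 CPM, the pseudogene Rpl6l 31.6 CPM and Rps27l 403.6 CPM. Outside the rule, Rps3a1 had 3478.0 CPM, Fau 2539.5 CPM and Gnb2l1 1128.6 CPM, within the range of the members.

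**Figure D1:**
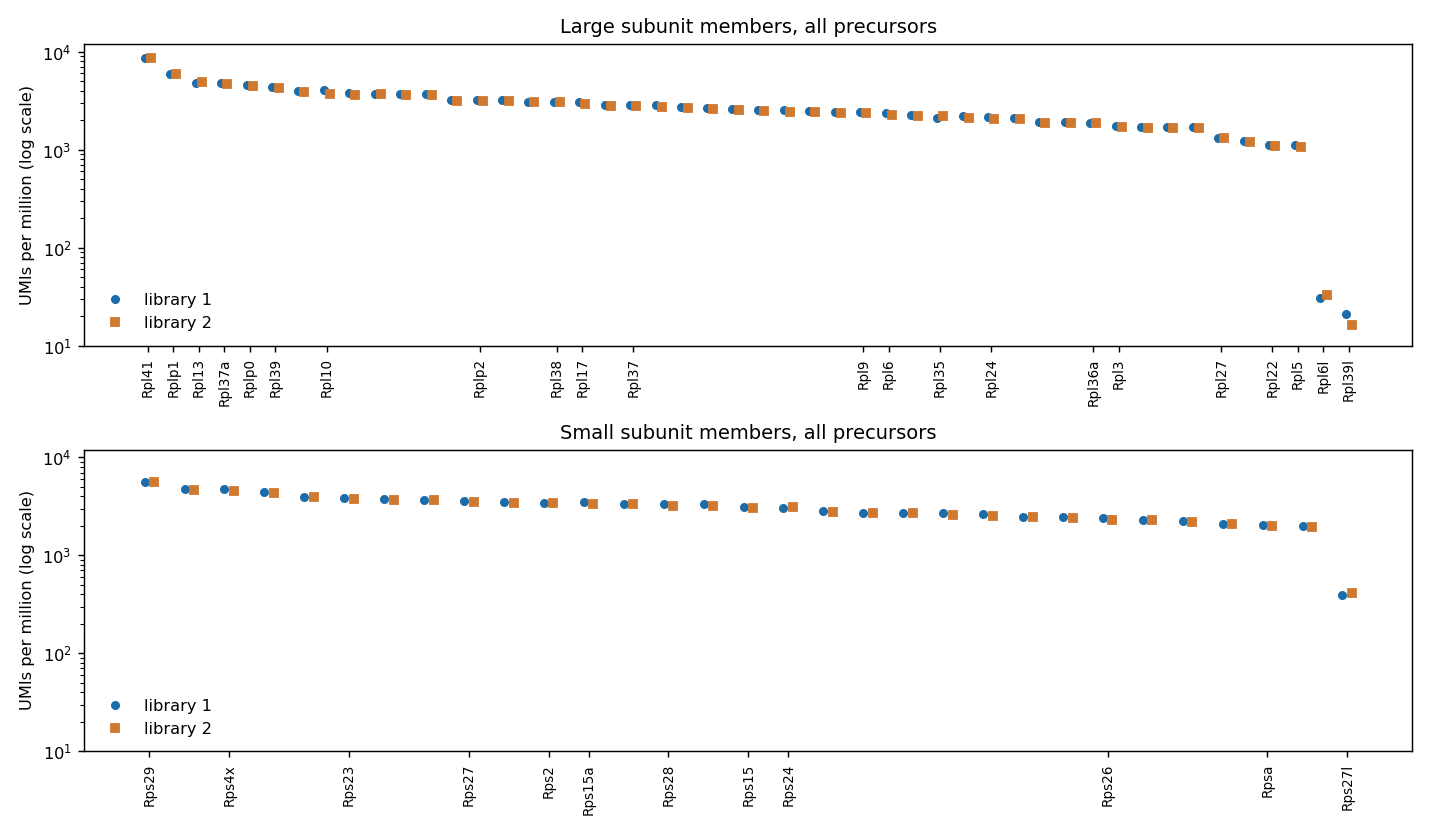
Level of the 79 members with at least 10 CPM in all precursors, in CPM on a log scale, with large-subunit members above, small-subunit members below, 1 point for each library and the members named in the text labelled. All but Rpl6l, Rpl39l and Rps27l lie above 1000 CPM, Rpl41 is highest and the points of the libraries nearly coincide.

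The members are spread over 19 chromosomes, with 14 on chromosome 7 and 4 on chromosome X (Rpl10, Rpl36a, Rpl39 and Rps4x). The variation between cells was computed for members only, with no interval and no other genes to set it against. In progenitor-pole cells thinned to 7470 UMIs each, the coefficient of variation in excess of counting noise had a median over 77 members of 13.7% in library 1 and 14.5% in library 2. The lowest value in both libraries was that of Rpl27, 3.49% and 9.18%. Rpl37 was high in both, at 17.9% and 19.1%, whereas Rpl22 had 18.4% in library 1 and 13.8% in library 2.

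Along the continuum the share of ribosomal protein UMIs was 22.4%, 23.4% and 24.1% in progenitor-pole, midway and committed-pole cells of library 1, and 21.7%, 22.8% and 24.0% in library 2. The order was the same in both libraries, and within the poles the libraries differed by less than the poles did. F3-type cells had 23.3% in library 1 and 22.8% in library 2, and the 3 pole states together had 23.3% and 22.8%. Cycling cells had the lowest share of the precursor classes, 21.4% and 21.1%, against 23.3% and 22.8% in non-cycling cells. The ranges of single cells overlapped widely, with 25th to 75th percentiles of 21.6% to 26.1% in committed-pole cells and 20.3% to 23.9% in progenitor-pole cells.

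**Figure D2:**
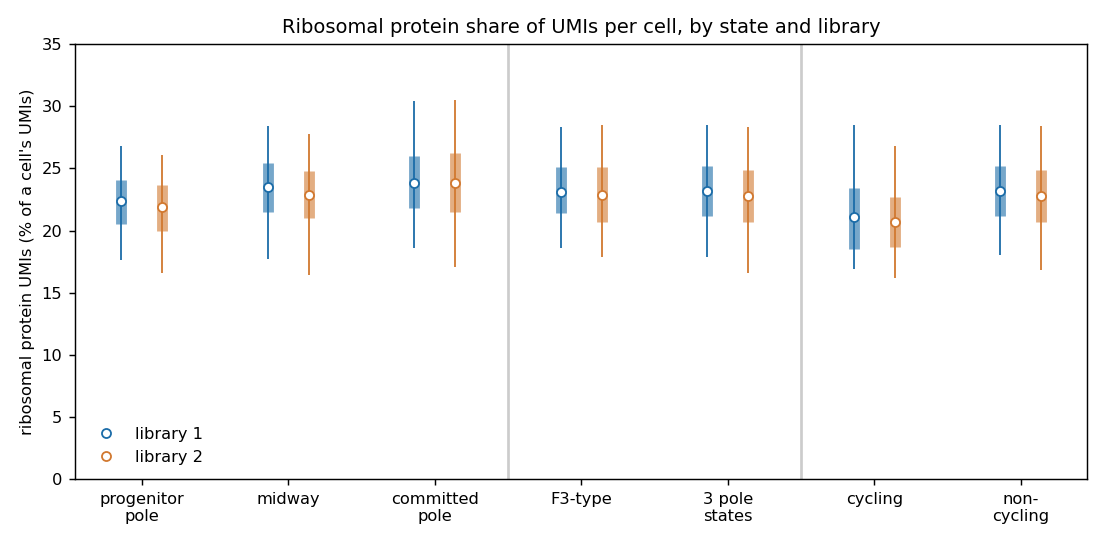
Ribosomal protein UMIs as a percent of each cell's UMIs (y axis) in 7 classes of precursors (x axis), library 1 in blue and library 2 in orange. Circles are medians over cells, thick bars the 25th to 75th and thin bars the 5th to 95th percentiles; the 3 pole states and the non-cycling cells stand to the right of the F3-type and cycling cells they serve as comparison for, and the medians of committed-pole cells (23.8% in both libraries) lie above those of progenitor-pole cells (22.4% and 21.9%).

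A higher share did not mean more ribosomal protein UMIs per cell. Committed-pole cells had a median of 2617.5 such UMIs among 10985.5 UMIs in all, and progenitor-pole cells 2942 among 13358. Cycling cells had a median of 3269 such UMIs among 15916.5, and non-cycling cells 2815 among 12354. Depth moved with the share within a class, with Pearson's r over cells between the share and log10 UMIs of 0.143 to 0.271 in the 3 pole states. When each library's cells of a pole were parted into 5 bins by depth, the committed-pole share was 23.2% to 24.3% and the progenitor-pole share 21.0% to 22.6%, so that the ranges of the 10 committed and 10 progenitor bins did not overlap. Cells were also thinned to 7470 UMIs, which left out 375 cells of library 1 and 314 of library 2. The mean share was then 24.1% ± 3.38 and 24.1% ± 3.61 in committed-pole cells (SD over cells, libraries 1 and 2). In progenitor-pole cells it was 22.4% ± 2.69 and 21.9% ± 2.78. Thinning leaves the expected share of a cell as it was, so apart from the shallow cells left out these means cannot bear on depth.

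Cells with under 15% ribosomal protein UMIs were few, 92 (2.78%) in library 1 and 123 (3.44%) in library 2. Their median depth was 6000 and 4416 UMIs and their median mitochondrial share 3.43% and 4.38%, against 1.73% and 1.77% over all kept cells. Of the 21 erythroid cells, all from library 1, 20 were among them, and erythroid cells as a class had a share of 7.7%. Immune cells had 22.9%, within the range of the precursor classes, and endothelial cells 20.7%, below it.

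Between the poles, most members differed little and in the same direction. The median log2 fold of the 79 members tested, committed over progenitor pole, was 0.14 (0.12 in library 1 and 0.15 in library 2), and 71 members lay above 0, 69 of them in both libraries. The median was 0.15 for the small and 0.13 for the large subunit. Over all 6941 genes tested, those with at least 10 CPM in at least 1 pole and no role in setting the states, the median was -0.10. For the 90 other genes with a mean of at least 1000 CPM it was 0.07, with 49 above 0 and 41 below.

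A gene was called when it was at least 1.2-fold higher, or at least 1.2-fold lower, in both libraries. By this rule 38.1% of all genes tested were called between the poles, 13.8% higher and 24.3% lower in the committed pole (16.9% and 18.0% with TMM scaling). Among the 79 members 1 was called, Rps28, which was higher. The calls depended on the rule and the scaling. In an edgeR quasi-likelihood fit of the same sums with library as a block, which leaves 1 residual degree of freedom, 53 members passed a Benjamini-Hochberg adjusted p of 0.05, 52 higher and 1 lower, against 57.5% of all genes. With TMM scaling 67 members passed in that fit, all higher, against 55.2% of all genes. These states were set from UMIs of the same cells, so the fit measures only whether the difference recurs in both libraries. With TMM scaling 11 members and with DESeq2 size factors 14 were called, all higher, and the member median was 0.21 and 0.22. With DESeq2 size factors 17.2% of all genes were called higher and 17.6% lower.

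Rps28, a protein at the mRNA exit of the small subunit, had 3676.0 and 3655.5 CPM in committed-pole cells of libraries 1 and 2, against 3047.8 and 2944.2 CPM in progenitor-pole cells. Its log2 fold was 0.29 (interval 0.28 to 0.31). The 4 values of the poles did not overlap, and the midway cells, at 3290.3 and 3209.3 CPM, lay between them. The poles were also apart in Rps23, Rpl9 and Rps15a, for example, and the share of all genes was not computed. Rps27, a zinc-finger protein of the small subunit, had 3992.7 and 4024.7 CPM in committed-pole cells, against 3328.2 and 3213.9 CPM in progenitor-pole cells. Its log2 fold was likewise 0.29, and it missed the call because library 1, at 0.26, was just under 1.2-fold. Rpl36a (0.27), Rps23 (0.27), which lies at the decoding centre, and Rpl9 (0.25) were the next members above the member median.

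At the other end, Rpl41 had 8244.9 and 8297.4 CPM in committed-pole cells, against 8957.4 and 8892.4 CPM in progenitor-pole cells. Its log2 fold was -0.11, below 0 in both libraries and far from the member median although short of the call. Rps27l (-0.08), Rps2 (-0.06), Rpl35 (-0.05) and Rpl5 (-0.02), which carries 5S ribosomal RNA into the large subunit, followed. Of these, Rps2, Rpl35 and Rpl5 lay above 0 under TMM scaling or DESeq2 size factors. Among the genes just outside the rule, Fau (0.19), Rps3a1 (0.05) and Gnb2l1 (0.03) were not called, whereas Rps27rt (0.34) and Rpl22l1 (0.32) were called higher. Matched members with a pyrimidine run of at least 8 (23) had a median of 0.17 and those with no such run (35) 0.13. For midway over progenitor pole the same medians were 0.0721 and 0.0716, and for F3-type cells 0.006 and -0.004. They were -0.109 and -0.119 for cycling cells, and 0.0394 and 0.0371 for library 1 over library 2. A link between such runs and the folds was not tested.

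**Figure D3:**
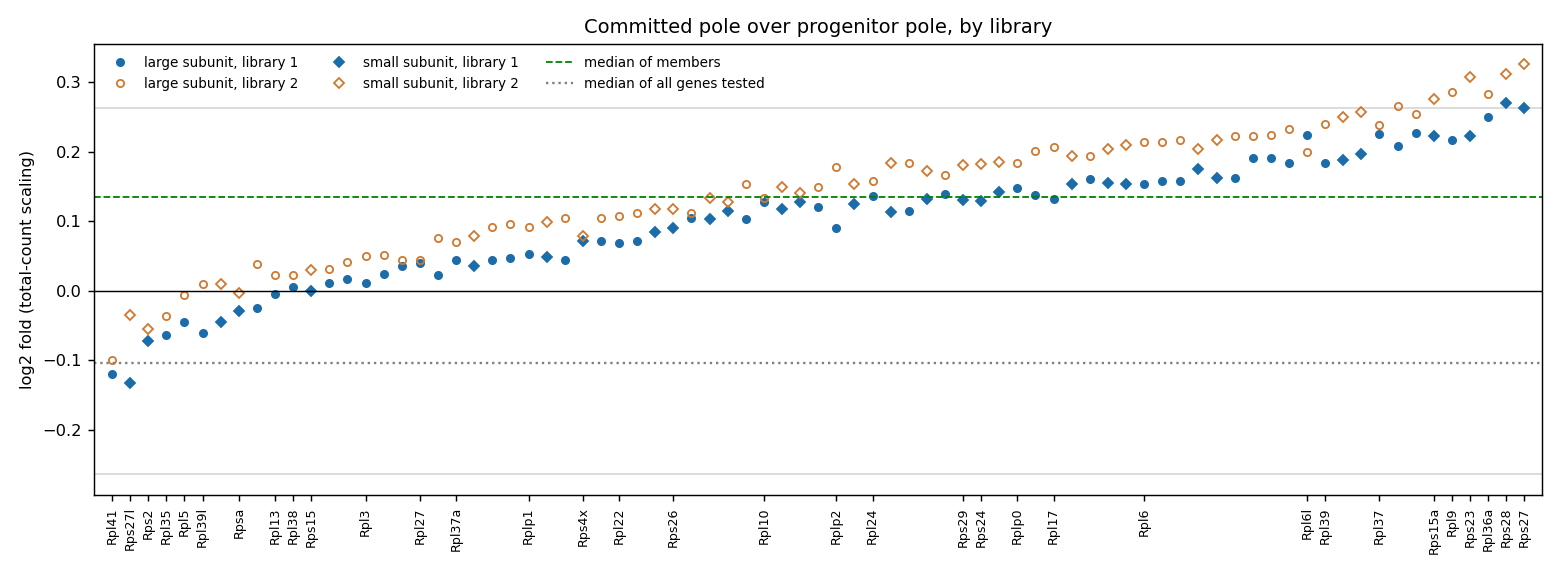
Log2 fold of committed-pole over progenitor-pole cells (y axis, counts scaled to the total) for the 79 members tested (x axis, ordered by the value over both libraries), filled blue for library 1, open orange for library 2, round for the large and diamond for the small subunit, with labels for members named in the text. Grey lines mark 1.2-fold, the dashed line the member median (0.14) and the dotted line the median of all genes tested (-0.10); Rpl41 is at the left end and Rps28 and Rps27 at the right.

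Other values moved with the poles beside the ribosomal protein share. The summed level of the 6 precursor identity genes, among them Dcn, Col1a1 and Col1a2 of the extracellular matrix, was 42027.0 and 40835.6 CPM in committed-pole cells, against 57393.3 and 59566.5 CPM in progenitor-pole cells. None of these 6 genes was at 0 in either pole. The part of these messages in the ribosomal protein share was not tested. With counts scaled to the UMIs of genes other than the members, the member median was 0.17 and 3 members were called, all higher. Of all genes, 15.2% were called higher and 21.2% lower with that scaling.

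Genes that act around the ribosome were read from lists. Of 30 ribosome biogenesis genes tested between the poles, 8 were higher and 2 lower, with a median of 0.05, beside the 38.1% called over all genes. Nop58, a core protein of box C/D small nucleolar ribonucleoproteins, had 129.7 CPM in committed-pole cells and 49.7 CPM in progenitor-pole cells (log2 fold 1.38). Rrs1 (0.80) and the nucleolar GTPase Gnl3 (0.68) were also higher, and Utp3 (-0.30) and Pes1 (-0.42) lower. Of 23 other genes with TOP mRNAs, Tpt1 was higher (0.30) and Ybx1 (-0.37) and Cct4 (-0.36) lower. Of 18 genes from a list drawn up for control of ribosome synthesis and translation, not all of them direct regulators, 2 were higher and 3 lower. Deptor, an inhibitor that binds mTOR, had 25.4 CPM in committed-pole and 4.05 CPM in progenitor-pole cells (2.65), and Myc 176.2 and 95.6 CPM (0.88). Sesn1 (-1.15), Mxd4 (-0.37) and Cdkn1a (-0.36) were lower. The mitochondrial ribosomal proteins, which share the name but belong to the ribosomes of mitochondria, had a median of -0.19, with 1 of 68 higher (Mrps6) and 18 lower.

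Midway cells lay between the poles. Over progenitor-pole cells the member median was 0.07, 77 of 79 members lay above 0 and none was called, against 8.66% of 6801 genes. In the edgeR fit with library as a block 61 members passed as higher and 1 as lower, against 21.5% of all genes, with log2 folds of at most 0.13 in size (71 and 1 with TMM scaling, against 21.0%). Rpl37 (0.13), Rps15a (0.12), Rpl39 (0.12), Rpl9 (0.12) and Rps28 (0.12) were farthest above the member median. Rps27l (-0.10) and Rpl41 (-0.02) were the 2 members below 0, and Rpsa, Rpl3 and Rplp0, at 0.01 each, were the next.

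F3-type cells differed little from the 3 pole states in these genes. The member median was 0.002, with 41 members above and 38 below 0, and it was -0.006 with TMM scaling and -0.008 with DESeq2 size factors. No member was called, against 9.09% of 6791 genes, and in the edgeR fit with library as a block 2 members passed as higher and 2 as lower, against 11.6% of all genes (5 with TMM scaling, all lower, against 13.4%). Toward the ends lay Rpl41 and Rpl35 (both -0.06), Rps26 and Rps15 (both -0.05) below, and Rps27, Rpl10 and Rps23 (each 0.05), Rps29 and Rpl6 (both 0.03) above. Of the lists around the ribosome, Nop58 (0.45) and Deptor (0.63) were the genes called, both higher.

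In cycling cells the members were lower as a group. The member median, cycling over non-cycling, was -0.12 (-0.13 in library 1 and -0.10 in library 2), and 69 of 79 members lay below 0, 67 of them in both libraries. The median was -0.11 for the small and -0.12 for the large subunit, against 0.10 for all 7347 genes tested. The 92 other genes with a mean of at least 1000 CPM had a median of -0.13, with 66 below 0, so that a shift of this size was not seen in ribosomal protein genes alone. Of all genes 30.8% were called, 23.9% higher and 6.89% lower (15.3% and 16.1% with DESeq2 size factors), and of the 79 members 2 were called, both lower. TMM scaling and DESeq2 size factors moved the median of all genes by -0.16 and -0.15, and with them the member median was -0.28 and -0.27. With them 39 and 36 members were called lower, against 16.8% and 16.1% of all genes. In the edgeR fit with library as a block 52 members passed as lower and 2, Rpsa and Rpl41, as higher, against 32.8% of all genes, and with TMM scaling 75 passed, all lower, against 34.9%.

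Rpl10, which sits near the peptidyl transferase centre and is among the last proteins to join the large subunit, was the lowest of them. It had 3145.1 and 2955.2 CPM in cycling cells of libraries 1 and 2, against 4081.0 and 3778.8 CPM in non-cycling cells, a log2 fold of -0.38 (interval -0.41 to -0.35). Rps27 had 2979.5 and 2822.2 CPM in cycling cells, against 3642.0 and 3550.3 CPM in non-cycling cells (-0.32). For both genes, each cycling value lay below each non-cycling value, which was also so for Rps14, Rpl13 and Rpl38, for example. The share of all genes with such a separation was not computed. Rpl38, a member whose mouse mutants have altered translation of Hox mRNAs, had 2547.5 and 2590.2 CPM in cycling and 3066.6 and 3096.5 CPM in non-cycling cells (-0.26), just short of the call. Rpl17 and Rps26 were also at -0.26.

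A few members were level with or above 0. Rpsa, which also serves as the laminin receptor at the cell surface, had 2253.8 and 2164.7 CPM in cycling cells, against 2045.6 and 1967.1 CPM in non-cycling cells (0.13). Rps27l (0.10), Rpl41 (0.07), Rps2 (0.03) and Rplp1 (0.01) followed. None of these 5 was called. With TMM scaling and with DESeq2 size factors all 5 lay below 0, Rpsa closest to it (-0.03 and -0.02). Rpl39l had a log2 fold of 0.26 from 69 UMIs in cycling cells, with opposite signs in library 1 (-0.13) and library 2 (0.61).

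**Figure D4:**
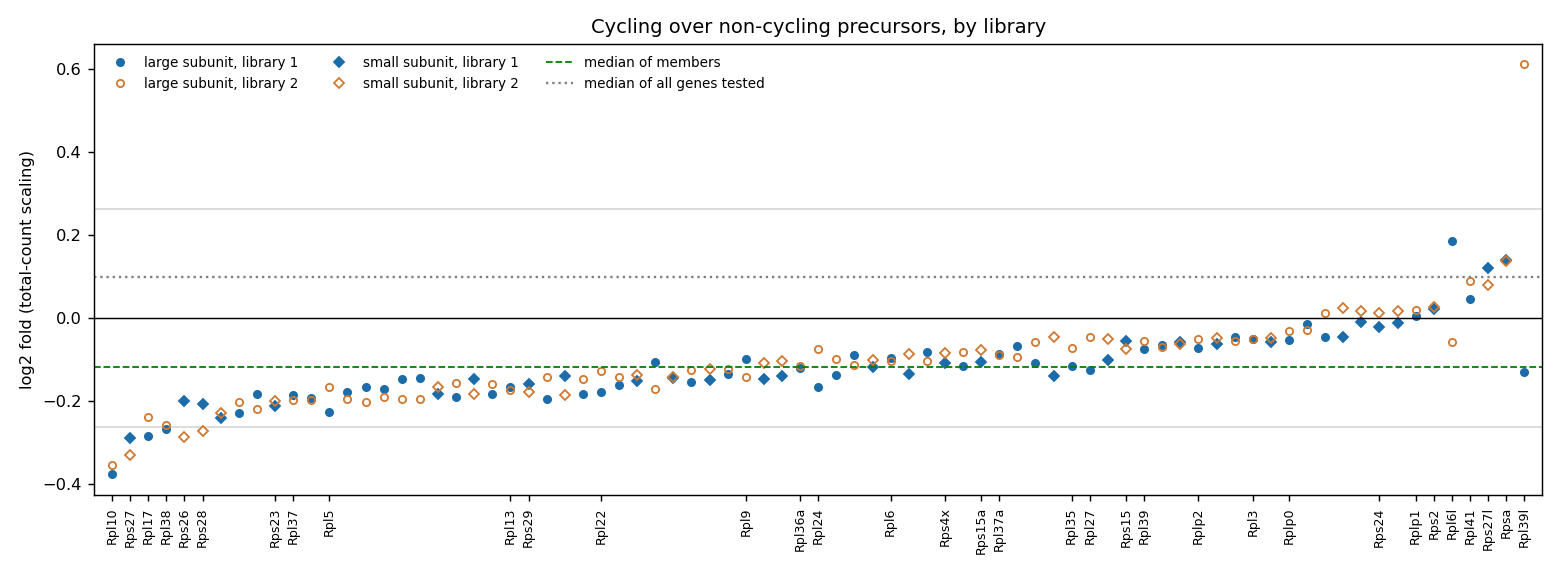
Log2 fold of cycling over non-cycling precursors (y axis, counts scaled to the total) for the 79 members tested (x axis, ordered by the value over both libraries), with symbols, labels and lines as for the poles. Rpl10 and Rps27 at the left end pass 1.2-fold lower in both libraries, most members lie near the dashed median (-0.12), and Rpsa, Rps27l and Rpl41 lie above 0 at the right, as does Rpl39l, whose libraries differ in sign.

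Cycling cells were few, 76 in library 1 and 118 in library 2, and deeper than the rest, with medians of 15764 and 15917.5 UMIs, against 12828 and 11971 in non-cycling cells. Among cells of 10000 to 14000 UMIs, 48 of them cycling, the member median was -0.09, against 0.13 for all genes. In that window 3 members were called, all lower, and the share of all genes called was not computed. Around the ribosome, 8 of 30 biogenesis genes were higher in cycling cells and 1 lower, with a median of 0.21, beside the 23.9% of all genes called higher. Utp3 (0.61), Nhp2 (0.52) and Ncl (0.42), which encodes nucleolin, were higher and Mybbp1a (-0.40) lower. Of the other TOP genes, Hnrnpa1 (0.74), Ybx1 (0.44) and Cct4 (0.40) were higher, and Eef1a1, the elongation factor that brings aminoacyl-tRNA to the ribosome, had 5281.4 CPM in cycling and 6532.2 CPM in non-cycling cells (-0.31). Of 19 genes from the list for control of ribosome synthesis and translation, 4 were called higher. Cdkn1a (0.77), Trp53 (0.70) and Eif4ebp2 (0.39) were the 3 farthest above 0 among these 4. Deptor (-0.93), Mxd4 (-0.56) and Sesn2 (-0.39) were lower. The mitochondrial ribosomal proteins had a median of 0.24, with 20 of 69 higher and 1 lower, again near the share of all genes called higher.

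Paralogue pairs were compared as the share of the paralogue in the UMIs of the pair, a measure that does not depend on the scaling between classes. Rpl22l1, which is outside the rule and can replace Rpl22 in the ribosome, gave nearly as many UMIs as Rpl22. Its share was 42.0%, 41.8% and 46.3% in progenitor-pole, midway and committed-pole cells of library 1, and 43.2%, 43.3% and 47.0% in library 2. The intervals of the committed pole (45.6 to 46.9% and 46.3 to 47.7%) lay apart from those of the progenitor pole (41.3 to 42.7% and 42.5 to 43.8%), while the midway cells lay with the progenitor pole. In cycling cells it was 48.0% and 48.6%, against 43.6% and 44.6% in non-cycling cells. F3-type cells had 45.4% (44.3 to 46.5%) and 46.1% (45.0 to 47.1%), against 43.3% and 44.4% in the 3 pole states. Rpl22l1 itself had 987.3 and 1004.5 CPM in the committed pole, against 791.3 and 798.9 CPM in the progenitor pole, a log2 fold of 0.32 that met the call in both libraries. Rpl22 had 0.09 in the same comparison.

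Rps27l, a paralogue of Rps27 that is known as a p53 target, followed another pattern. Its share of the pair was 11.2%, 9.55% and 8.72% in progenitor-pole, midway and committed-pole cells of library 1, and 11.6%, 10.4% and 9.25% in library 2. In cycling cells it was 12.6% (11.6 to 13.6) and 13.3% (12.5 to 14.2), against 9.76% and 10.4% in non-cycling cells. In both libraries it was highest in cycling and lowest in committed-pole cells. Over these classes the level of Rps27l lay between 381.0 and 433.8 CPM and that of Rps27 between 2822.2 and 4024.7 CPM. Rps27rt, a retrotransposed copy of Rps27 outside the rule, held a nearly constant share of the sum with Rps27, 21.5% to 21.9% over the classes of library 1 and 18.8% to 19.8% over those of library 2. Its folds followed those of Rps27, with 0.34 between the poles, called higher, and -0.39 in cycling cells, called lower. Reads of near-identical copies may have been divided between these genes, so neither level is certain.

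Rpl36al, the intronless relative of Rpl36a, gave 26.1%, 23.5% and 22.8% of its pair from progenitor to committed pole in library 1, and 25.9%, 24.5% and 23.4% in library 2. In cycling cells the shares were 25.4% and 25.8%, against 24.1% and 24.6% in non-cycling cells. The intervals of cycling (23.8 to 27.1% and 24.6 to 27.1%) and non-cycling cells (23.8 to 24.4% and 24.3 to 24.8%) overlapped in both libraries. The other paralogues were minor. Rpl7l1 gave 1.16% of its pair in the 3 pole states, Rpl39l 0.43% and Rpl3l 0.007%. With 0 UMIs of Rpl10l beside 251185 of Rpl10, its share was at most 0.00147%.

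**Figure D5:**
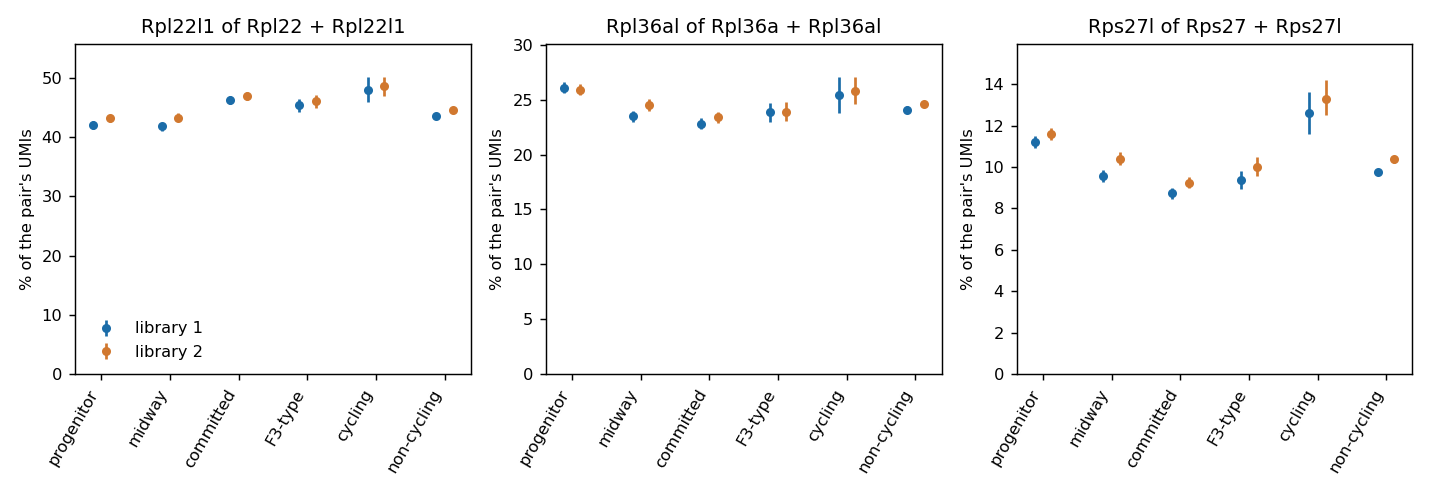
Share of the paralogue in the UMIs of its pair (y axis, percent, from 0) in 6 classes of precursors (x axis) for Rpl22l1, Rpl36al and Rps27l, with exact binomial intervals for counting error, library 1 in blue and library 2 in orange. Rpl22l1 is higher in committed-pole, F3-type and cycling cells than in progenitor-pole and midway cells, while Rps27l is lowest at the committed pole (8.72% and 9.25%) and highest in cycling cells (12.6% and 13.3%).

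Between the libraries, ribosomal protein genes differed little. With TMM scaling over the 3 pole states, the member median of library 1 over library 2 was 0.04, with 70 of 79 members above 0, against -0.001 for all genes. It was 0.05 in both progenitor-pole and midway cells and -0.003 in committed-pole cells. Under the rule of at least 1.2-fold in the same direction in all 3 states, 1 member (1.27%) was called, near the 1.41% of 6733 genes. That member was Rpl39l, which had 21.6 CPM in library 1 and 15.4 CPM in library 2 (689 and 497 UMIs) and a log2 fold of 0.49 (0.33 to 0.66). It was higher in library 1 in progenitor-pole (21.8 and 14.6 CPM), midway (22.2 and 16.8 CPM) and committed-pole cells (20.9 and 14.7 CPM). These states come from the same 2 libraries and are not replicates. In cycling cells Rpl39l was lower in library 1, at 19.6 and 23.6 CPM (23 and 46 UMIs).

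Among abundant members Rpl10 was farthest above the member median, with 4062.9 CPM in library 1 and 3764.9 CPM in library 2 (0.11, and 0.09 to 0.13 over the 3 states). Rps4x (0.07), Rps26 (0.07), Rpl24 and Rpl17 followed, and Rps27l (-0.06), Rpl35 (-0.06), Rps24 (-0.04), Rps2 (-0.01) and Rpl38 (-0.01) lay at the other end. Outside the rule, Rps27rt had 1002.6 CPM in library 1 and 853.7 CPM in library 2 (0.23) and was not called. Its levels were 911.3 and 767.3 CPM in progenitor-pole, 990.5 and 826.6 CPM in midway and 1122.6 and 994.9 CPM in committed-pole cells. The summed haemoglobin and Alas2 level in precursors was 854.6 to 872.4 CPM over the 3 pole states of library 1 and 18.8 to 21.6 CPM over those of library 2, so the libraries also differed in RNA that comes from other cells. The part of this in the differences between the libraries was not tested.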

How the data were processed

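The authors deposited raw UMI counts per gene and barcode, made before any normalization. Per the labels, the chemistry was 10x Genomics 3′ version 2, and the submitters' processing notes name Cell Ranger (version not given), Seurat 3.0.1 and the mm10 build without saying what each did. Library 1 held 42092816 and library 2 held 43491307 UMIs.

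Barcodes with at least 500 genes and at most 10% mitochondrial UMIs were kept, doublets were not removed, and states were set from marker UMIs. Counts were summed per state and library and scaled to the total (between libraries by TMM in edgeR 4.0.16). Called means at least 1.2-fold in the same direction in each library (between libraries, in each of the 3 pole states). No test between conditions was possible with 1 library each. For the states, present in both libraries, an edgeR quasi-likelihood fit of the summed counts was added after values were seen. It had library as a block and Benjamini-Hochberg adjustment. Its p-values rest only on the spread between 2 libraries, which the fit estimates for each gene by drawing also on all genes tested. Intervals at 95% (exact Poisson, Clopper-Pearson and conditional binomial) cover counting error only. The code was tested on simulated counts.

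Each comparison names up to 5 members per side farthest from the member median at 50 CPM or more, up to 3 called genes per direction from each other list, the 5 highest and lowest levels and all paralogue pairs. Members and lists were chosen with earlier results of these data known. The list of mitochondrial ribosomal proteins, Rps3a1, and Mrps6 as a named gene were added after values were seen. DESeq2 1.42.0 size factors were an alternative. Some genes that these rules name are not reported here.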

Additional observations from a re-analysis of the deposited data

How the results depend on the processing

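Of the 5 member medians, those of the committed pole, midway and cycling comparisons kept their sign under every alternative tried. For committed over progenitor pole the median of 0.135 was 0.172 when scaled to UMIs of other genes, 0.21 with TMM, 0.216 with DESeq2 size factors and 0.176 with the outer 2 of 5 parts as poles. The 1 member called became 3, 11, 14 and 8 in the same order. It became 2 with each cell weighted the same, with cells thinned to 1 depth, without the 5% of cells with the most UMIs and with no level minimum, 7 in library 2 alone, and 0 at 1.5-fold or with the first part of each marker list. Of all genes, 13.8% were called higher with total-count scaling, 15.2% scaled to other genes, 16.9% with TMM and 17.2% with DESeq2. The shares of all genes under the remaining settings were not computed. The median of midway over progenitor pole, 0.0683, was 0.0879 scaled to other genes, 0.0851 with TMM, 0.0726 without the deepest 5% of cells, 0.0773 in cells of 10000 to 14000 UMIs, 0.0969 with 5 parts, and 0.0595 and 0.057 with the first and second part of each marker list. With no level minimum 1 member (0 before) passed the rule in this comparison and 1 (0 before) in that of F3-type cells. There and between the poles the added member was Rpl3l, which had 13 UMIs in all. A sum of 0 was set to 3 counts. Its 0 UMIs in midway and in committed-pole cells of library 1 thus counted as more than the 1 UMI of the progenitor pole. Those calls come from this floor, and the F3-type call rests on 5 UMIs against 8 in the 3 pole states.

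The F3-type median of 0.00166 changed sign with TMM (-0.00583), DESeq2 (-0.00753) and 4 detected list genes (-0.00975), and was 0.00375 with each cell weighted the same, 0.000382 with stricter cell filters (1000 genes and 5% mitochondrial), 0.00383 in library 1 and 0.00519 in library 2. The cycling median of -0.117 was -0.15 scaled to other genes, -0.275 with TMM, -0.265 with DESeq2, -0.0879 in cells of 10000 to 14000 UMIs and -0.155 with at least 5 cycling UMIs. The 2 members called became 4, 39, 36, 3 and 7 in the same order, 1 with each cell weighted the same or without the deepest 5% of cells, 4 in library 1, 5 in library 2 and 0 at 1.5-fold. Of all genes, 6.89% were called lower in cycling cells with total-count scaling, 8.17% scaled to other genes, 16.8% with TMM and 16.1% with DESeq2. The shares under the remaining settings were not computed. Between the libraries the median of 0.0387 was -0.00331 in committed-pole cells alone, and the 1 member called, Rpl39l, was not called in cells of 10000 to 14000 UMIs, at a level minimum of 50 CPM or at 1.5-fold (0 members each). The causes of these changes were not tested. The window of depths and the use of cells with mural markers, which changed no count of calls, were chosen after seeing the data. With library as a replicate block in edgeR, also chosen after seeing the data, the members passing an adjusted p of 0.05 were 53 between the poles, 62 midway, 4 in F3-type and 54 in cycling cells, and 67, 72, 5 and 75 with TMM scaling. That fit sets no minimum fold. Depth limits Rpl39l, Rpl6l and Rpl3l, and the 194 cycling cells limit that comparison.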
